A study of Mus musculus with 24 samples.

Results

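The expression of 10 genes of spermatogonia was examined in testes from wild-type mice (WT) and from Thumpd1-deficient mice (KO). The genes were Gfra1, Kit, Zbtb16, Id4, Sall4, Nanos3, Uchl1, Dmrt1, Sohlh1 and Stra8. They are established genes of these cells and were looked up by symbol in a table of 55450 genes, and each symbol matched 1 row. RNA had been sequenced from testes, liver and cerebellum, with 4 libraries for each genotype and tissue. WT libraries carried the replicate numbers 1 to 4 and KO libraries the numbers 5 to 8. KO mice were Thumpd1-/-, descended from C57BL/6N eggs injected with Cas9 and guides against exon 1 and exon 4 and kept on a C57/BL6 background, and several edited lines were made. WT mice were age-matched littermates unless stated otherwise, all mice were between 6 and 12 weeks old, and no other allele or treatment was named for either group. The labels name neither the animal nor the edited line behind a library, so p-values measure the spread between these libraries. Thumpd1 brings the acetyltransferase Nat10 to leucine and serine tRNAs.

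Spermatogonia are the mitotic germ cells at the base of the seminiferous tubule, and they include the stem cells that sustain sperm production. Glial cell line-derived neurotrophic factor (GDNF) from somatic cells of the testis acts on undifferentiated spermatogonia through the receptor pair GFRA1 and RET. Retinoic acid moves these cells into differentiation, when they display the receptor KIT, respond to KIT ligand from Sertoli cells and, before meiosis, make STRA8. In a whole testis these cells are a minority among spermatocytes and spermatids, and several of the 10 genes are also used elsewhere, such as Kit and Id4 in brain.

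The promoters of Stra8, Sohlh1 and Kit are shown because the first pair of genes gave no count outside testes while Kit was read in all 3 tissues. They run from 250 bases before to 50 bases after the start site in RefSeq for GRCm38.p6, the assembly called mm10 in the labels. Of the 10 genes, 7 matched an entry there, and Zbtb16, Dmrt1 and Sall4 did not. Capitals mark matches, on either strand, to 3 short motifs, which are the E-box CACGTG, the nuclear receptor element AGGTCA and the E2F-like GCGGGA. Stra8 is at chr6:34920698-34920997 on the plus strand, Sohlh1 at chr2:25847199-25847498 on the minus strand, and Kit at chr5:75574737-75575036 on the plus strand.
Stra8: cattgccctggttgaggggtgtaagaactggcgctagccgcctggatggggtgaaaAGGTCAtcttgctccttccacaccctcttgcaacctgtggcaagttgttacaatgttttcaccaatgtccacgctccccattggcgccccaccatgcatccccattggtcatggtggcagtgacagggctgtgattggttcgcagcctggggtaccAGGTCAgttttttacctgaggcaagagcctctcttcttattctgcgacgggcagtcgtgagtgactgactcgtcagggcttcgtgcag
Sohlh1: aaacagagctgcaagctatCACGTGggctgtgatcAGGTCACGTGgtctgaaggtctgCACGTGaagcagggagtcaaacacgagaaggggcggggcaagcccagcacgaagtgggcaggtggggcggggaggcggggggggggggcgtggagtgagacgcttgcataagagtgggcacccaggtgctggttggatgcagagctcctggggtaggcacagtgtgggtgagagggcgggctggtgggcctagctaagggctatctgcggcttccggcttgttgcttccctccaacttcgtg
Kit: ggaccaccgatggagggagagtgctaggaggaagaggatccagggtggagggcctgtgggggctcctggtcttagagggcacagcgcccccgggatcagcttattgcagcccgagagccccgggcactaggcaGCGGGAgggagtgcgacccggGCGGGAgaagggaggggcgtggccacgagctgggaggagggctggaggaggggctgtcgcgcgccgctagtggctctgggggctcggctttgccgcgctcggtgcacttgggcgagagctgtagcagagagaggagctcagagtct

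The Stra8 promoter held AGGTCA at 194 and 38 bases before the start site, a motif found in 16.3% of 32851 promoters of the same length. The Sohlh1 promoter held CACGTG at 231, 211 and 192 bases before the start site. This motif was found in 7.15% of the promoters, and 29 of them (0.0883%) held it 3 or more times. The middle copy overlapped an AGGTCA that began 215 bases before the start. The Kit promoter, the first of 2 overlapping Kit entries, held GCGGGA at 117 and 96 bases before the start, a motif in 19.98% of promoters. None of these letters occurred in the windows of Gfra1, Id4, Nanos3 and Uchl1. The 7 promoters differed widely in their CpG content, given as the observed over the expected number of CpG. It ran from 0.131 for Nanos3 to 0.988 for Id4, with Stra8 at 0.430, Kit at 0.621 and a median of 0.384 over all promoters. Leucine and serine codons, which are read by the tRNAs that Thumpd1 serves, made up 16.1% (Uchl1) to 22.7% (Dmrt1) of the codons of the 10 genes. Over 21526 coding genes the 10th and 90th percentiles were 13.9% and 23.1%, and all 10 genes lay between them.

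The libraries were examined first. Total counts ran from 27273231 to 36621604 in the testes libraries and from 16353797 to 37889615 over all 24. Thumpd1 read 24.3 to 26.3 CPM (counts-per-million) in WT testes and 0.768 to 1.14 CPM in KO testes, and every library matched its label. All 10 genes had counts in each of the 8 testes libraries, the lowest being Nanos3 with 6 to 14 counts. The KO testes fell into pairs. Between libraries, the chi-square per gene was 3.39 for KO replicates 5 and 6, 15.0 for 7 and 8, and 20.3 to 31.0 across the pairs, against 2.31 to 12.4 among WT libraries. WT replicate 2 carried 114 CPM of epididymis markers in sum, where the other WT libraries held 4.43 to 5.65 CPM and KO libraries 20.2 to 33.2 CPM. Crisp1 gave 95.2 CPM of that sum, while Lcn5 and Lcn8 of the same list were at 0 in all 8 libraries. Results are therefore given also with each KO pair left out, a choice made after seeing the data.

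Zbtb16 was higher in KO than in WT testes, while none of the other genes tested passed the test. Of the 9 genes that could be tested, 1 was called higher and 0 lower at a Benjamini-Hochberg adjusted p under 0.05 in limma-voom, where 20.5% of all 19329 genes tested were called in either direction. At an unadjusted p under 0.05 the count was 3 of 9, namely Zbtb16, Stra8 and Sohlh1, where 7145 of all 19329 genes stood under it. The change was positive for 7 of the 9, with a median of 0.21 on the log2 scale against 0.00 over all genes. The median was 0.02 with KO replicates 5 and 6 alone and 0.29 with 7 and 8 alone. For 2 genes, Zbtb16 and Stra8, all KO libraries were above all WT libraries in normalized log2 CPM, and 26.6% of all genes did not overlap in one direction or the other. Fewer cells of a type and less RNA per cell cannot be told apart in bulk tissue. All log2 changes below are KO minus WT after quantile normalization, with their standard error (SE), while levels are CPM of the deposited counts.

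**Figure D1:**
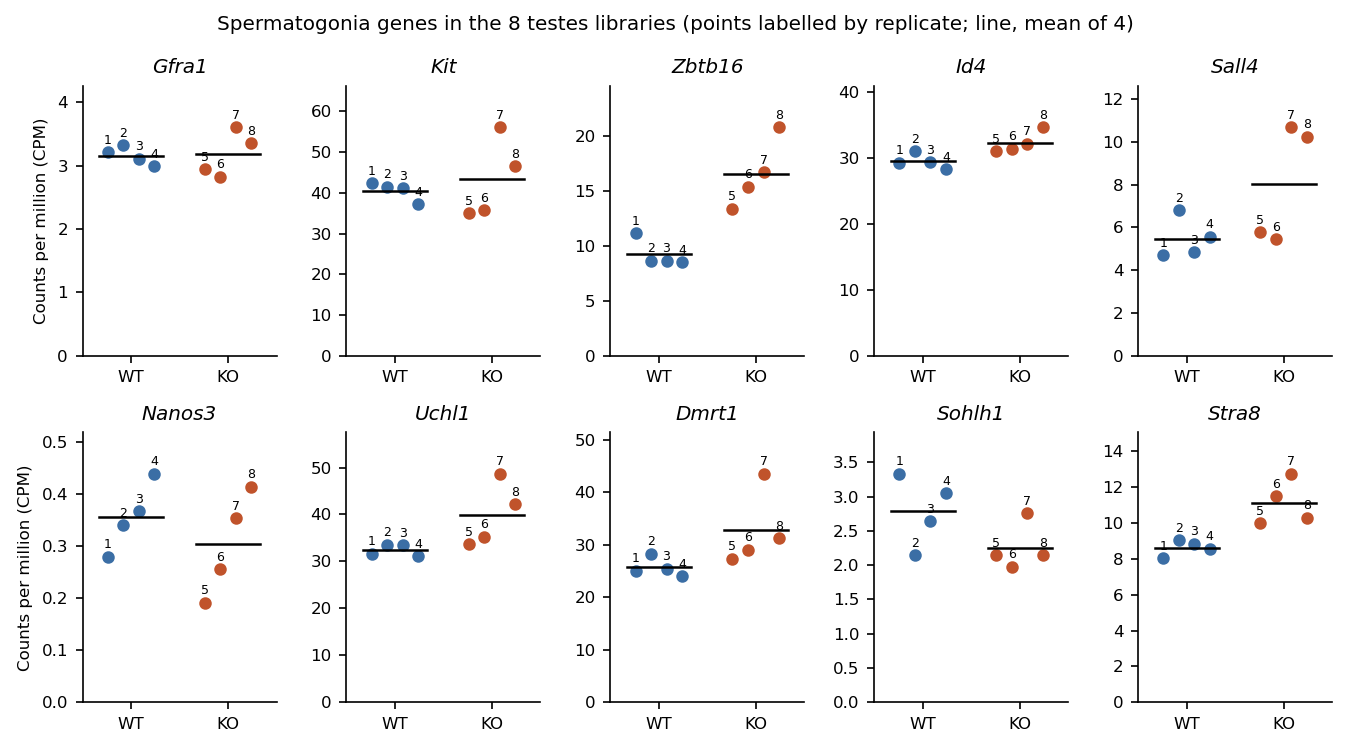
CPM of the 10 genes in the 8 testes libraries, each panel with its own linear axis from 0, points numbered by replicate (WT, blue; KO, orange) and a line at the mean of 4 libraries. Zbtb16, Stra8 and Uchl1 stood higher in all 4 KO libraries than in any WT library, and for Gfra1, Kit, Zbtb16, Id4, Sall4, Uchl1 and Dmrt1 the KO libraries 7 and 8 were the highest of the 8.

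Among the receptors, Gfra1 (chr19:58235604-58455909, minus strand) encodes the GDNF-binding subunit and is the usual mark of the stem cell pool. It read 3.21, 3.32, 3.11 and 2.99 CPM in WT replicates 1 to 4 and 2.94, 2.82, 3.60 and 3.36 CPM in KO replicates 5 to 8. The groups overlapped, and the change was -0.09 ± 0.11 (SE), adjusted p = 0.595. An antisense gene, Gm16277, overlaps 416 bp of its exons, and the strand setting of the counting was not given in the sources used here.

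Kit (chr5:75574916-75656722, plus strand) encodes the receptor for KIT ligand, and a shorter Kit transcript is also made in spermatids. WT libraries held 42.3, 41.5, 41.2 and 37.2 CPM and KO libraries 34.99, 35.7, 56.1 and 46.5 CPM. KO replicates 5 and 6 were below all WT libraries, and 7 and 8 were above them. Over all 4 the change was 0.00 ± 0.13 (SE), adjusted p = 0.991. It was -0.26 ± 0.06 (SE) with replicates 5 and 6 alone, adjusted p = 0.0157, and 0.26 ± 0.08 (SE) with 7 and 8 alone, adjusted p = 0.0248, so each pair passed the test in the opposite direction.

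The transcription factors of undifferentiated spermatogonia came next. Zbtb16 (chr9:48654297-48836222, minus strand) encodes PLZF, a repressor needed for stem cell self-renewal. It read 11.2, 8.66, 8.66 and 8.52 CPM in WT testes and 13.4, 15.4, 16.7 and 20.8 CPM in KO testes. Every KO library was above every WT library, WT replicate 1 was the highest of its group, and each library held at least 259 Zbtb16 counts. The change was 0.72 ± 0.13 (SE), or 1.65-fold, adjusted p = 0.00619. It was 0.55 ± 0.11 (SE) with KO replicates 5 and 6 alone and 0.87 ± 0.13 (SE) with 7 and 8 alone, and passed the test in both. In a fit over all 24 libraries, in which the 3 tissues share 1 estimate of the spread, its adjusted p was 0.0928.

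Id4 (chr13:48261228-48266026, plus strand) encodes an inhibitor of basic helix-loop-helix factors and is enriched in stem cells. It read 29.3, 31.0, 29.4 and 28.3 CPM in WT and 31.0, 31.4, 32.2 and 34.7 CPM in KO testes. The groups met at 31.0 CPM, and the change was 0.05 ± 0.06 (SE), adjusted p = 0.593. The antisense genes A330033J07Rik and Gm49291 overlap 253 bp of its exons.

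Sall4 (chr2:168748332-168767943, minus strand) encodes a zinc finger factor that binds PLZF. WT libraries held 4.70, 6.80, 4.85 and 5.56 CPM and KO libraries 5.79, 5.46, 10.7 and 10.2 CPM. KO replicates 7 and 8 were above all WT libraries, and 5 and 6 lay within their range. The change was 0.40 ± 0.22 (SE), adjusted p = 0.206, with -0.04 ± 0.15 (SE) for replicates 5 and 6 and 0.81 ± 0.14 (SE) for 7 and 8, adjusted p = 0.00107. The antisense gene Gm14261 overlaps 526 bp of its exons.

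Nanos3 (chr8:84173731-84185217, minus strand) encodes an RNA-binding protein that keeps germ cells alive and undifferentiated. It did not reach 1 CPM in 4 testes libraries and was not tested in the fit. WT testes gave 9, 11, 11 and 14 counts, or 0.280 to 0.440 CPM, and KO testes 6, 7, 13 and 12 counts, or 0.192 to 0.415 CPM. The groups overlapped, and a two-sided exact permutation test of the CPM gave p = 0.371 (adjusted p = 0.371 over 4 such tests), where 4 against 4 libraries allow no p below 0.0286.

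Uchl1 (chr5:66676091-66687234, plus strand) encodes a ubiquitin hydrolase abundant in spermatogonia and in neurons. WT testes held 31.7, 33.6, 33.5 and 31.1 CPM and KO testes 33.7, 35.3, 48.7 and 42.2 CPM. All KO values were above the WT values in CPM, by a narrow margin for replicate 5, and they overlapped after quantile normalization. The change was 0.21 ± 0.10 (SE), adjusted p = 0.142, with 0.03 ± 0.06 (SE) for KO replicates 5 and 6 and 0.39 ± 0.07 (SE) for 7 and 8, adjusted p = 0.00145. The antisense gene Uchl1os overlaps 295 bp of its exons.

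Dmrt1, Sohlh1 and Stra8 govern differentiation and the entry into meiosis. Dmrt1 (chr19:25505618-25604329, plus strand) encodes a factor that holds spermatogonia in mitosis and is also made in Sertoli cells. It read 25.1, 28.4, 25.5 and 24.01 CPM in WT and 27.4, 29.1, 43.6 and 31.3 CPM in KO testes. KO replicate 7 was far above the rest, while replicate 5 lay within the WT range. The change was 0.25 ± 0.12 (SE), adjusted p = 0.144, and it was 0.07 ± 0.07 (SE) with KO replicates 5 and 6 and 0.43 ± 0.11 (SE) with 7 and 8, adjusted p = 0.00994.

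Sohlh1 (chr2:25842995-25847248, minus strand), the gene with 3 E-boxes printed above, encodes a basic helix-loop-helix factor that drives differentiation. It read 3.33, 2.14, 2.64 and 3.05 CPM in WT testes and 2.14, 1.98, 2.76 and 2.14 CPM in KO testes. WT replicate 2 was as low as the KO libraries. The change was -0.40 ± 0.16 (SE), adjusted p = 0.0985, and it was the most negative of the 9. It was -0.52 with KO replicates 5 and 6 alone and -0.28 with 7 and 8 alone, and passed the test in neither (adjusted p = 0.0917 and 0.272). Of the fits that left out 1 library, 1 passed, that without WT replicate 2 (-0.52, adjusted p = 0.0468), and the others gave adjusted p = 0.0726 to 0.226.

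Stra8 (chr6:34920163-34939344, plus strand), whose promoter above holds a pair of AGGTCA elements, is induced by retinoic acid before meiosis. WT testes held 8.04, 9.03, 8.83 and 8.55 CPM and KO testes 9.98, 11.5, 12.7 and 10.3 CPM. Every KO library was above every WT library. The change was 0.26 ± 0.09 (SE), adjusted p = 0.0621, just outside the threshold. It passed with TMM factors (adjusted p = 0.0423), upper quartile factors (0.0449), edgeR (0.0396) and DESeq2 (0.0259). It did not pass without a filter on low counts (0.130), in the fit over all 24 libraries (0.0535), with KO replicates 5 and 6 alone (0.116), or when any single library other than KO replicate 5 was left out (0.0652 to 0.146). It passed without KO replicate 5 (0.0402) and with KO replicates 7 and 8 alone (0.0414).

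**Figure D2:**
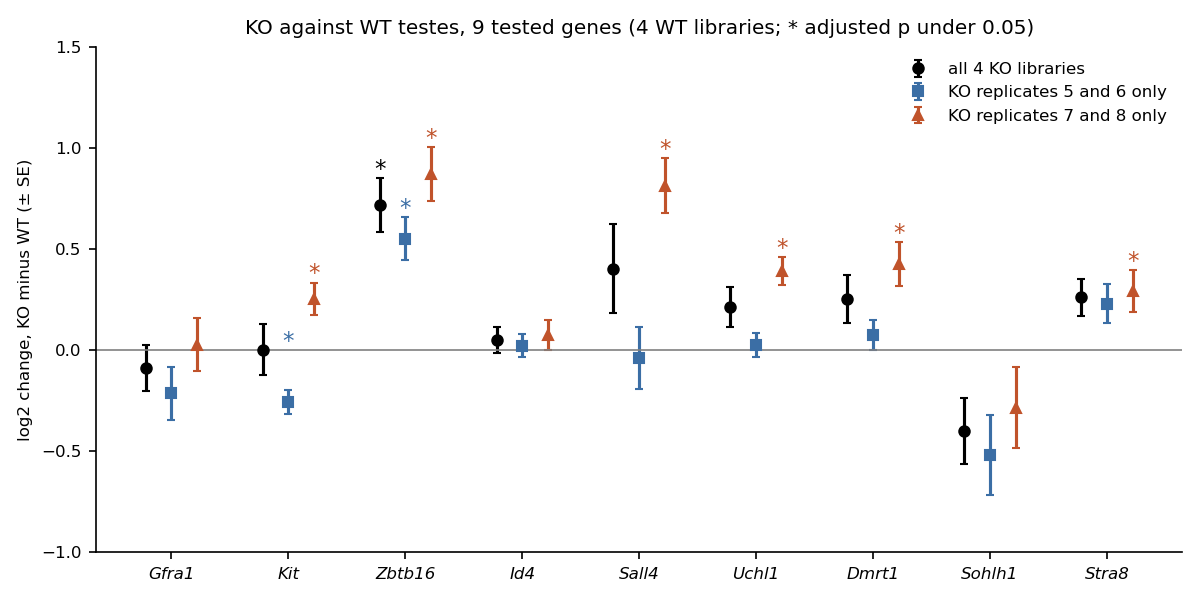
Log2 change (KO minus WT, ± SE) of the 9 tested genes in testes, with all 4 KO libraries (black circles), with KO replicates 5 and 6 alone (blue squares) and with 7 and 8 alone (orange triangles), against the same 4 WT libraries, where * marks an adjusted p under 0.05. Zbtb16 was called in all 3 fits, and Kit changed sign between the pairs, from -0.26 to 0.26.

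The count of genes called thus depended on which KO libraries were used. With KO replicates 5 and 6 alone, 1 of 9 was called higher (Zbtb16) and 1 lower (Kit), and 18.8% of all genes were called. With 7 and 8 alone, 6 of 9 were called higher and 0 lower, and 42.3% of all genes were called. The 6 were Zbtb16, Sall4, Dmrt1, Uchl1, Stra8 and Kit. Among the genes that most resembled the mean of the standardised values of the 9 over the 8 testes libraries, Tapbp (Pearson r = 0.996), Prkcsh (0.993) and Tbc1d9b (0.992) ranked first. Of the 9 themselves, Uchl1 (0.975), Sall4 (0.926) and Dmrt1 (0.892) followed that mean most closely, and Sohlh1 ran against it (-0.18). Kit (0.853), Zbtb16 (0.588), Stra8 (0.577), Gfra1 (0.555) and Id4 (0.452) lay between. Each of the 9 is part of the mean, which raises its own r. These correlations rest on 8 libraries, in which KO replicates 7 and 8 had the highest means, at 1.15 and 0.788 standard deviations.

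Levels were then compared between genes per kilobase of exon, on the scale of CPM per kb. In WT testes Uchl1 was the highest at 19.9 ± 0.788 CPM per kb (SD, n = 4), followed by Dmrt1 at 9.92 ± 0.718, Id4 at 7.66 ± 0.297, Stra8 at 4.78 ± 0.239 and Kit at 4.55 ± 0.256. Below them stood Sohlh1 at 2.17 ± 0.402 CPM per kb, Zbtb16 at 1.75 ± 0.244, Sall4 at 0.989 ± 0.173, Gfra1 at 0.576 ± 0.0261 and Nanos3 at 0.387 ± 0.0715. The libraries of neighbours in this order did not overlap, except for Stra8 with Kit and Sohlh1 with Zbtb16.

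Only some of the 10 genes belonged to testes alone in these data. Dmrt1, Stra8 and Sohlh1 gave 0 counts in all 16 liver and cerebellum libraries. Against a limit of 3 counts in the shallowest WT library of the other tissue, which covers counting error only, WT testes held at least 232-fold more Dmrt1 than liver and 158-fold more than cerebellum. For Stra8 the bounds were at least 77.5-fold and 52.7-fold, and for Sohlh1 at least 25.1-fold and 17.1-fold. Sall4 gave 1 count in all WT liver libraries together and 18 in WT cerebellum, a testes level 26.2 times that of cerebellum (95% counting interval 16.4 to 44.4). Uchl1 gave 6 counts in WT liver and 3859 in WT cerebellum.

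The other genes were as high or higher elsewhere. Gfra1 read 113 to 127 CPM in WT liver, 37.8 times its testes level in pooled counts, and its limma change from liver to testes was -6.17 ± 0.17 (SE) on the log2 scale. Zbtb16 read 20.6 to 27.9 CPM in WT liver, and its change to testes was -2.33 ± 0.29 (SE). Kit at 183 to 200 CPM and Id4 at 67.5 to 77.2 CPM were higher in WT cerebellum than in testes, with changes to testes of -1.98 ± 0.10 and -1.05 ± 0.06 (SE). Both were lower in liver, where Kit held 5.92 to 7.41 CPM and Id4 1.15 to 1.65 CPM.

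For 3 genes the testes and cerebellum values could not be told apart by the test, with changes to testes of 0.29 ± 0.25 (SE) for Gfra1, 0.46 ± 0.37 for Zbtb16 and -0.19 ± 0.23 for Uchl1, adjusted p = 0.276, 0.245 and 0.437. In CPM, however, Uchl1 did not overlap, at 31.1 to 33.6 in WT testes and 38.1 to 50.6 in WT cerebellum. Nanos3 read 0.663 to 1.14 CPM in WT cerebellum and 0.280 to 0.440 CPM in WT testes, without overlap, and an exact permutation test gave the smallest possible p of 0.0286 (adjusted p = 0.0571). Of the 4 genes that passed the filter within testes and within liver, all 4 were called between the WT tissues, and of the 5 in testes and cerebellum 2 were (Kit and Id4), where 89.7% and 89.3% of all genes were called. The other genes tested (Dmrt1, Stra8, Sohlh1 and Sall4, and Uchl1 against liver) passed the filter through tissues where they were high, so their calls were fixed by the filter and are not counted.

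**Figure D3:**
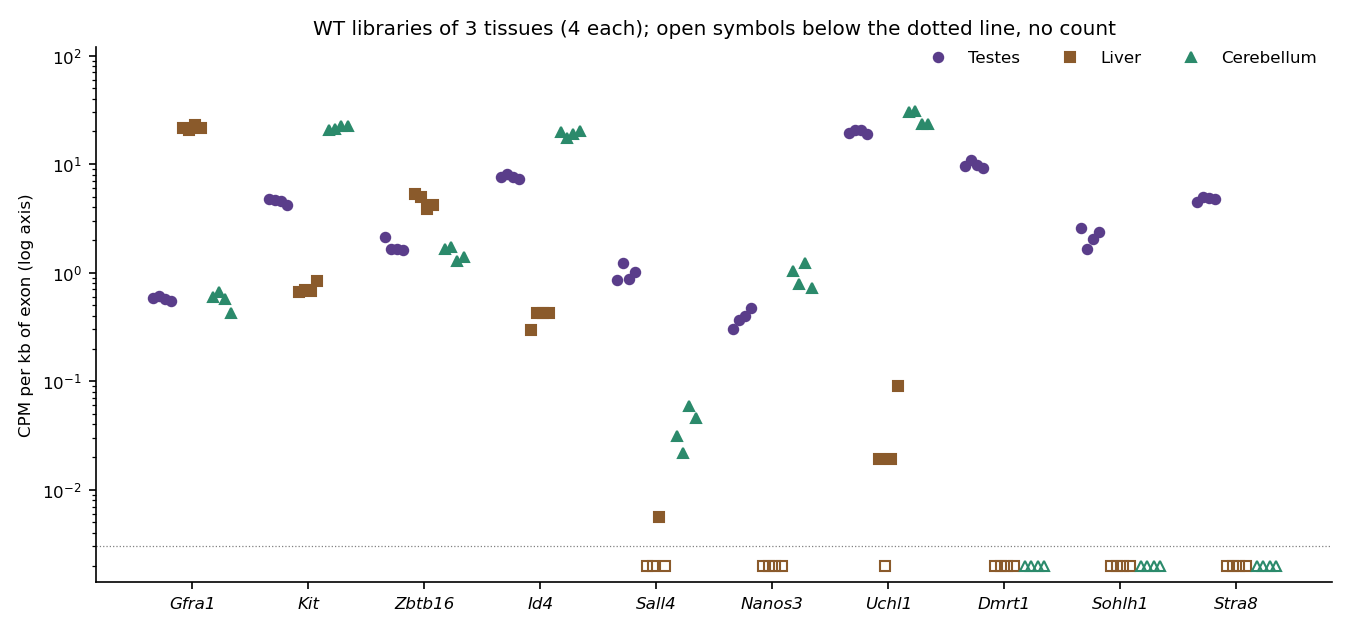
CPM per kb of exon (log axis) of the 10 genes in the 4 WT libraries each of testes (purple circles), liver (brown squares) and cerebellum (green triangles), with open symbols under the dotted line for libraries with no count. Dmrt1, Sohlh1 and Stra8 appeared in testes alone, whereas Gfra1 and Zbtb16 were highest in liver and Kit and Id4 in cerebellum.

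The genes read outside testes were compared between KO and WT there as a background to the testes values. In cerebellum 5 of the 10 genes passed the filter and 3 were called higher in KO, where 6.44% of all genes tested were called, and for the same 3 the groups did not overlap, as for 13.7% of all genes. Zbtb16 read 8.71, 9.14, 6.70 and 7.29 CPM in WT and 10.01, 10.6, 14.8 and 11.9 CPM in KO cerebellum, a change of 0.53 ± 0.13 (SE), adjusted p = 0.0341. Gfra1 read 3.29, 3.60, 3.16 and 2.35 CPM in WT and 5.32, 5.32, 5.01 and 3.63 CPM in KO cerebellum, a change of 0.59 ± 0.16 (SE), adjusted p = 0.0448. Uchl1 read 49.8, 50.6, 38.6 and 38.1 CPM in WT and 62.7, 61.9, 55.8 and 53.6 CPM in KO cerebellum, a change of 0.38 ± 0.09 (SE), adjusted p = 0.0260. All KO libraries were above all WT libraries for each of the 3. The 3 calls were close to the threshold, and none of them remained when WT replicate 3 or WT replicate 4 was left out. Over all genes 463 and 459 were called in these fits, against 1045 with all libraries. With KO replicates 5 and 6 alone Zbtb16 was not called (0.32 ± 0.13 SE, adjusted p = 0.245), while Gfra1 (0.72, adjusted p = 0.0471) and Uchl1 (0.48, adjusted p = 0.0419) were. With 7 and 8 alone Zbtb16 was the 1 gene called (0.72 ± 0.13 SE, adjusted p = 0.00797), while Gfra1 and Uchl1 were not, with adjusted p = 0.134 and 0.0936. Over all genes 388 were called with 5 and 6 alone and 1645 with 7 and 8 alone.

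In liver 4 of the 10 genes passed the filter and 0 were called with limma, where 5.91% of all genes were. At an unadjusted p under 0.05 the count was 1 of 4, where 2981 of all 12816 genes tested stood under it. The 1 gene was Zbtb16, which read 27.9, 26.5, 20.6 and 22.4 CPM in WT and 28.5, 25.0, 64.5 and 57.2 CPM in KO liver. Replicates 7 and 8 held more than any WT library, and 5 and 6 were close to the WT range. The change was 0.82 ± 0.26 (SE), adjusted p = 0.0904. It was 0.21 ± 0.11 (SE) with replicates 5 and 6 alone, adjusted p = 0.249, and 1.32 ± 0.09 (SE) with 7 and 8 alone, adjusted p = 0.000130. edgeR and DESeq2 also called 0 of the 4.

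Zbtb16 was thus called higher in KO testes and cerebellum, while in liver it missed the threshold. The difference of its KO effect between testes and liver was -0.00 ± 0.38 (SE) in a fit over all 24 libraries, and between testes and cerebellum 0.23 ± 0.50 (SE), adjusted p = 0.997 and 0.852. None of the 4 genes read in testes and liver and none of the 5 read in testes and cerebellum was called for such a difference. Over all genes, 7.03% were called between testes and liver and 6.14% between testes and cerebellum.

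Gdnf and Kitl, which encode ligands, were called higher in KO testes. They belong to a signalling list, given below, whose share of calls was near that of all genes. Their receptor genes Gfra1 and Kit were not called over all 4 libraries. A difference between ligand and receptor genes was not tested. KIT ligand comes from Sertoli cells, whose listed genes had a median change of 0.44, and their part in these values was not tested. Gdnf read 1.46 to 1.74 CPM in WT and 2.24 to 2.63 CPM in KO testes, without overlap, a change of 0.52 ± 0.13 (SE), adjusted p = 0.0181. Kitl, the KIT ligand, read 25.2 to 33.03 CPM in WT and 35.1 to 45.9 CPM in KO testes, without overlap, a change of 0.43 ± 0.09 (SE), adjusted p = 0.0110. Ret, the signalling partner of GFRA1, did not pass the test, at 1.56 to 2.64 CPM in WT and 1.89 to 3.33 CPM in KO testes (0.36 ± 0.23, adjusted p = 0.264). In a list of 24 genes of GDNF and KIT signalling, 21 were tested, 4 were called higher and 1 lower, with a median change of 0.15, where 20.5% of all genes were called in either direction. The other called genes were Cxcr4, a chemokine receptor (0.82), Plcg1, a phospholipase (0.28), and Gfra4, the persephin receptor subunit (-0.30). With KO replicates 5 and 6 alone 3 were called higher and 1 lower (median 0.0033), where 18.8% of all genes were called, and with 7 and 8 alone 12 and 2 (median 0.31), where 42.3% were. Calls were also counted over 14 other settings, namely other scalings and tests, no filter, all 24 libraries and single libraries left out. Of these, Cxcr4 and Kitl were called in 14, Gdnf in 11, Plcg1 in 7 and Gfra4 in 5.

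Other genes of undifferentiated spermatogonia moved in both directions. Of 30 listed genes 24 were tested, 7 were called higher and 4 lower, and the median change was 0.28 (0.06 with KO replicates 5 and 6 alone, 0.38 with 7 and 8 alone), where 20.5% of all genes were called. Itga6, a laminin receptor subunit used to sort stem cells, read 19.2 ± 2.21 CPM in WT and 32.3 ± 3.98 CPM in KO testes (SD, n = 4), a change of 0.66. The RNA-binding genes Lin28a and Elavl2 changed by 0.39 and 0.37, the GDNF-responsive Bcl6b by 0.44, Cited2 by 0.48, the surface gene Tspan8 by 0.74 and Sall1 by 0.55. Eomes, a T-box factor of a stem cell subset, read 1.60 ± 0.283 CPM in WT and 0.479 ± 0.154 CPM in KO testes (SD, n = 4), a change of -2.16 ± 0.29 (SE). It reached 1 CPM in WT libraries alone (at least 1.25 CPM, against at most 0.608 CPM in KO). Eomes thus passed the filter through the group where it was high, so its call among the 4 lower carries no weight. Lhx1, which is induced by GDNF, changed by -0.74, Epcam by -0.29 and Ngfr by -0.29. Sall1, Lhx1, Ngfr and Ret were added after their values were seen, the first 3 to complete the called genes of the list. Nanos2 and Neurog3 were among the 6 genes too low to test. With KO replicates 5 and 6 alone the counts were 6 higher and 3 lower, where 18.8% of all genes were called, and with 7 and 8 alone 14 and 3, where 42.3% were. Leaving out WT replicate 2 or WT replicate 3 left 2 called higher, and leaving out WT replicate 4 left 1. Over all genes the 3957 calls fell as well, to 2624, 1741 and 1746 without WT replicates 2, 3 and 4. In the 14 other settings named above, Itga6 was called in 14, Cited2 in 13, Elavl2 in 10 and Tspan8 in 9. Bcl6b was called in 8, and Lin28a and Epcam in 7 each.

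Genes of differentiating spermatogonia and of retinoic acid also held calls in both directions, against the same 20.5% over all genes. Of 20 genes of differentiating spermatogonia, all tested, 3 were called higher and 1 lower, with a median change of 0.13. Dnmt3a, a DNA methyltransferase, rose from 30.7 ± 1.85 to 44.3 ± 6.39 CPM (SD, n = 4), a change of 0.44. Rarg, the retinoic acid receptor of spermatogonia, changed by 0.50 and the proliferation gene Mki67 by 0.24, while Dmrtb1, which acts at the exit from mitosis, changed by -0.18. Of 23 genes of retinoic acid and meiotic entry, 20 were tested, 3 were called higher and 2 lower, with a median of 0.03. These were Rarg, the retinaldehyde dehydrogenase Aldh1a3 (0.47) and the germ cell gene Dazl (0.31) on one side, and the meiotic cohesin Rec8 (-0.21) and the retinol dehydrogenase Rdh10 (-0.26) on the other. In the 14 other settings named above, Aldh1a3 was called in 14, Rarg in 13, Dazl in 11, Rec8 in 9 and Rdh10 in 4. For differentiating spermatogonia, 3 were called higher and 1 lower with KO replicates 5 and 6 alone (median 0.0050, 18.8% of all genes called) and 9 and 3 with 7 and 8 alone (median 0.24, 42.3% of all genes called). For retinoic acid the counts were 4 and 3 (median -0.03) and 5 and 4 (median 0.05).

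Markers of other testis cells moved in the same libraries, and their part in the values above was not tested. The counts stand against 20.5% of all genes called in either direction. Of 24 Sertoli cell genes 18 were called higher and 0 lower, with a median change of 0.44, and their sum was 1686 to 1945 CPM in WT and 2204 to 3070 CPM in KO testes. Their most abundant members were Clu, which read 807 ± 63.4 CPM in WT and 1068 ± 204 CPM in KO testes, and Ctsl, which read 197 ± 10.7 and 286 ± 39.2 CPM (SD, n = 4). Of 23 round spermatid genes 13 were called lower and 0 higher (median -0.24), summing to 4477 to 4607 CPM in WT and 3488 to 4092 CPM in KO testes. Of 20 elongating spermatid genes 12 were called lower and 0 higher (median -0.21), with sums of 19975 to 20868 and 15060 to 18543 CPM. Among their most abundant genes Tssk2 changed by -0.24 and Prm2 by -0.28, while Gapdhs (-0.15) and Odf2 (-0.02) did not pass the test. Both shifts were smaller with KO replicates 5 and 6 alone (medians of 0.30 for Sertoli, -0.11 for round and -0.10 for elongating spermatid genes) than with 7 and 8 alone (0.64, -0.40 and -0.35).

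Lists of the other cells held calls in both directions or few calls, against 20.5% over all genes, 18.8% with KO replicates 5 and 6 alone and 42.3% with 7 and 8 alone. Of 25 spermatocyte genes 1 was called higher and 4 lower (median 0.05, and below 0 with TMM or upper quartile factors, edgeR and DESeq2), with Ybx2 at -0.05 and Stag3 at 0.04, and Stag3 was negative with TMM factors at -0.09. The called spermatocyte genes, named like those of Leydig cells and endothelium after their values were seen, were Rad51ap2 (0.41) and, lower, Syce3 (-0.43), Aurkc (-0.39), Pttg1 (-0.23) and Ccna1 (-0.21). With KO replicates 5 and 6 alone 5 spermatocyte genes were called higher and 2 lower, and with 7 and 8 alone 3 and 7 (median -0.03). Of 15 general germ cell genes 2 were called higher, Dazl and Tdrd9 (0.19), and 0 lower. In the 14 other settings named above, Dazl was called in 11 and Tdrd9 in 1. Leydig cell genes gave 3 higher and 2 lower of 14, with Insl3 at 0.14 and Cyp17a1 at -0.17. They were Hsd3b1 (0.94), Hao2 (0.45) and Hsd17b3 (0.29) on one side and Hsd3b6 (-0.99) and Fdx1 (-0.32) on the other, where the closely alike Hsd3b1 and Hsd3b6 may share reads. With KO replicates 5 and 6 alone 3 Leydig genes were called higher and 6 lower (median -0.16), and with 7 and 8 alone 5 and 2 (median 0.15). Peritubular myoid genes gave 1 and 1 of 9 (Actg2 -0.35, Mylk 0.28), macrophage genes 1 and 1 of 10 tested (Aif1 -0.33, Mrc1 0.35) and endothelial genes 0 and 1 of 8 tested (Egfl7 -0.30), with Cdh5 at 0.26 and Flt1 at 0.24. With KO replicates 7 and 8 alone the counts were 4 and 1 for myoid, 4 and 1 for macrophage, 3 and 0 for endothelial and 5 and 2 for general germ cell genes, and with 5 and 6 alone 1 and 1, 0 and 1, 0 and 1, and 2 and 0. Of the epididymis genes 3 were tested and 2 called higher, Crisp1 (3.86) and Adam7 (4.45), but WT replicate 2 held more of them than any KO library, and edgeR gave -0.37 for Crisp1.

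**Figure D4:**
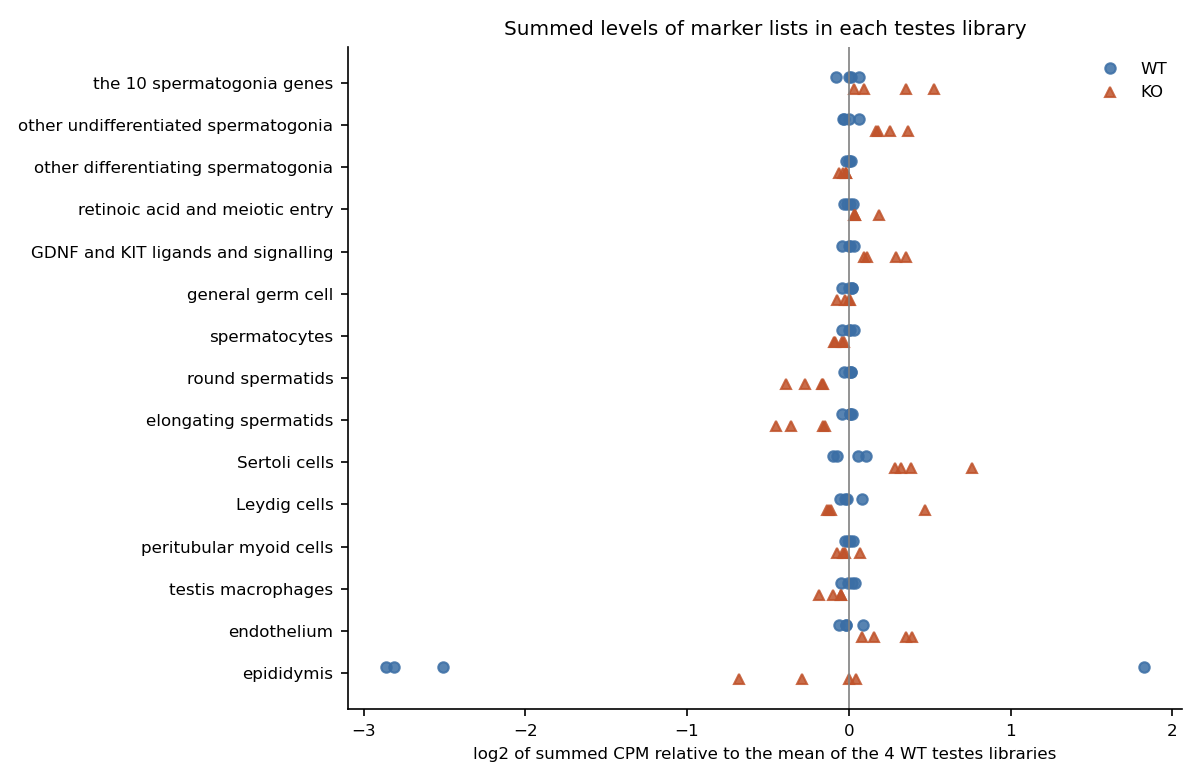
Summed CPM of 15 marker lists in each testes library, as log2 relative to the mean of the 4 WT libraries (WT, blue circles; KO, orange triangles). The KO libraries stood above WT for other undifferentiated spermatogonia, GDNF and KIT signalling and Sertoli cells, and below it for round and elongating spermatids. For retinoic acid and meiotic entry they stood above WT by a narrow margin, with a lowest KO sum of 1216 CPM against a highest WT sum of 1212 CPM. The epididymis sum was highest in WT replicate 2 at 114 CPM.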

How the data were processed

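Total RNA from mouse testes, liver and cerebellum had been read as paired ends from a stranded, ribosome-depleted kit. The deposited values are expected counts from RSEM, for which the authors aligned reads with STAR to mm10 and used GENCODE M21. Versions of both tools and the strand setting of the counting are not given in the sources used here. Testes, liver and cerebellum libraries held 16353797 to 37889615 counts, and 0 columns were left unmatched. Groups came from the labels.

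The filter at 1 CPM, quantile normalization and limma followed the study's methods, while fitting each tissue apart and asking for 1 CPM in at least 4 libraries were choices made here. Genes were compared with voom and limma 3.58.1 in R 4.3.3, adjusted over all genes tested with a threshold of 0.05. Contrasts between tissues were taken over all 24 libraries after TMM scaling (edgeR 4.0.16). Alternatives on rounded counts used edgeR's quasi-likelihood test and DESeq2 1.42.0. Nanos3 was tested by two-sided exact permutation with scipy 1.17.1. The steps were tested on simulated data. Genes named are the 10 genes, Thumpd1, up to 8 called genes with the lowest p of each spermatogonial or pathway list, the 2 highest expressed genes of each other list, and the 3 most like the mean profile. The 10 genes, the lists and the rule were chosen with earlier results of these data known. Bin2a and Meiosin, listed for epididymis and meiotic entry, matched no symbol. Promoters came from RefSeq, codons and exon lengths from GENCODE M21, whose identifiers and symbols matched all 55450 rows.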

Additional observations from a re-analysis of the deposited data

Results flagged for a closer look

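Of 44 sets of 4 libraries checked, 4 held a library whose gap to its nearest neighbour, as a share of the range, passed Dixon's critical value for 4 values, which chance passes in about 1 of 20 sets. Zbtb16 in WT testes was highest in replicate 1 at 11.2 CPM (share 0.946). Id4 in WT liver was lowest in replicate 1 at 1.15 CPM (share 0.940), and Id4 in KO liver was highest in replicate 6 at 2.31 CPM (share 0.849). Uchl1 in KO liver had counts in replicate 7 alone, at 0.132 CPM (share 1), which is 5 counts. Without WT replicate 1 the change of Zbtb16 in KO testes was 0.80, against 0.72 with all libraries.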

How the results depend on the processing

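Counts of the 10 genes called, and of all genes called, changed by more than 1.5 times in these cases, and the cause was not tested. In testes 1 of 9 was called, 2 with edgeR, 2 with DESeq2, 2 with TMM factors, 2 with upper quartile factors, 0 in the fit over all 24 libraries, 2 without KO replicates 7 and 8, 6 without KO replicates 5 and 6, and 1 to 3 with single libraries left out (3 without KO replicate 5, 2 without WT replicate 2). Over all genes in testes the 3957 calls became 8168 without KO replicates 5 and 6 and 1741 to 4931 with single libraries left out, lowest without WT replicate 3. In cerebellum 3 of 5 were called, 1 without a filter, 1 without KO replicates 5 and 6, 0 in the fit over all 24 libraries and 0 to 3 with single libraries left out, and the 1045 calls over all genes became 681, 1645, 195 and 398 to 2321 in the same order, and 388 without KO replicates 7 and 8. In liver 0 of 4 were called, 1 without KO replicates 5 and 6 and 0 to 1 with single libraries left out (Zbtb16 without KO replicate 6), and the 757 calls over all genes became 1408 with DESeq2, 1409 without KO replicates 7 and 8, 1584 in the fit over all 24 libraries and 292 to 798 with single libraries left out. Leaving out 1 library moved the all-gene counts for a KO effect that differs between tissues to 782 to 2584 (liver) and 776 to 1602 (cerebellum). These directions turned. In testes Gfra1 became 0.0267 without KO replicates 5 and 6, and without 7 and 8 Kit became -0.2555, Sall4 -0.0382, Odf2 0.0073, Stag3 -0.0312, Insl3 -0.0967 and the list medians for macrophages -0.055, Leydig cells -0.1572 and retinoic acid -0.0339. Without 5 and 6 the spermatocyte median became -0.0261. With TMM or upper quartile factors, edgeR and DESeq2 the medians of spermatocytes, Leydig cells and general germ cells were all below 0, against values above 0 with quantile normalization, and single libraries left out also turned those of Leydig cells and retinoic acid. Kit was -0.0004 with upper quartile factors and -0.1305 to 0.0948 with single libraries left out, Odf2 -0.0391 to 0.0296 and Insl3 -0.0521 to 0.2178. Stag3 was -0.0934 with edgeR, -0.0972 with DESeq2, -0.0946 with TMM factors, -0.1087 with upper quartile factors and -0.1037 in the fit over all 24 libraries, and Insl3 -0.011 with upper quartile factors. Crisp1 was -0.3653 with edgeR and -0.3643 with DESeq2, and the epididymis median -0.2092 and -0.2129. In liver Kit became -0.0547 without KO replicates 7 and 8, and Id4 0.0305 with edgeR, 0.0367 with DESeq2, 0.2265 without KO replicates 7 and 8 and -0.2913 to 0.0012 with single libraries left out. The difference of the KO effect between testes and liver for Zbtb16 ran from -0.2338 to 0.2659, and that between testes and cerebellum for Kit from -0.174 to 0.0563. Replicate numbers 1 to 8 recur in the 3 tissues. The correlation of same-numbered libraries' deviations ran from -0.091 to 0.233 over 16 pairs, and 6 of 16 correlated best with their own number, so the numbers were not taken to pair the samples. This check cannot exclude that same-numbered libraries came from the same mouse, so KO changes in the 3 tissues may not be independent. With the replicate number as a block, 9 and 6 of the 10 genes were called between WT testes and liver or cerebellum and 0 for a KO effect that differs between tissues, as without it, counts that are partly fixed by the filter. Over all genes the block moved the latter count from 1594 to 2860 against liver. The fits within a tissue allow no block, since WT and KO share no number. Depth limits Nanos3 (6 to 14 counts in a testes library) and any value under 3 counts.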
